A study of Mus musculus with 18 samples.

Results

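The 8 chemokine ligand genes Ccl1, Ccl2, Ccl3, Ccl4, Ccl6, Ccl7, Ccl9 and Cxcl2 were followed across mouse basophils and mast cells, in a study of which genes the 2 cell types express and which of them depend on the transcription factor Cebpa. The genes were chosen by name, with earlier results of these data known. They are 8 of 19084 genes with a symbol on the array, and each was measured by exactly 1 of 26423 probes. RNA of 18 C57Bl/6 samples was hybridized to single-dye microarrays, 3 arrays in each of 6 groups. The groups were Cebpa f/f RosaYFP/creER basophils given 100 nM 4-hydroxytamoxifen (4-OHT) for 5 days, Cebpa f/f RosaYFP/creER basophils without the drug, Cebpa +/+ RosaYFP/creER basophils with the same drug, Cebpa +/+ RosaYFP/creER basophils without it, basophils isolated fresh from marrow, and mast cells grown from marrow.

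The f/f genotype carries Cebpa alleles flanked by loxP sites, which the creER recombinase removes once 4-OHT activates it, and RosaYFP reports recombination. All 4 cultured basophil groups carried creER and RosaYFP and were kept for 5 days in interleukin-3 at 20 ng/ml. The fresh basophils were taken 3 days after mice received complexes of interleukin-3 with an antibody to it, and the mast cells came from 4 weeks of culture in interleukin-3 at 20 ng/ml. The labels give the fresh basophils and the mast cells no creER or RosaYFP allele, so cultured basophils may differ from both in genotype as well as in treatment, and cell type in the fresh-to-mast comparison cannot be told apart from culture. None of the sources used here gives the promoter that drives creER, the age of the mice or whether replicates were separate animals or cultures, so p-values measure only sample-to-sample spread, which may be technical.

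Chemokines are small secreted proteins that draw leukocytes through G protein-coupled receptors. Ccl3, Ccl4, Ccl6 and Ccl9 belong to the macrophage inflammatory protein group, of which Ccl3, Ccl6 and Ccl9 act through Ccr1, Cxcl2 draws neutrophils through Cxcr2, Ccl2 and Ccl7 draw monocytes through Ccr2, and Ccl1 is the ligand of Ccr8. Activated mast cells and basophils are known sources of such ligands in allergic inflammation, and Cebpa is a leucine zipper factor of the myeloid lineage.

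The upstream sequences of 4 genes are shown because these genes differ in how they compare between genotypes, as described further on: with the drug, Ccl6 and Ccl3 differed most between genotypes among the genes with a sequence here, Ccl9 was called lower with the drug and not without it, and Cxcl2 was not past the test in either case. Each is the 250 bases before the RefSeq transcription start, 5′ to 3′ on the strand of the gene, in build GRCm38.p6. Capitals mark matches, on either strand, to TTNNGNAA for C/EBP, GGG followed by 5 bases of any kind and CC for NF-kappaB, TGANTCA for AP-1 or TATAAA for a TATA box. Ccl6 spans chr11:83593088-83593337, - strand, Ccl3 chr11:83649379-83649628, - strand, Ccl9 chr11:83578637-83578886, - strand and Cxcl2 chr5:90903649-90903898, + strand.
Ccl6: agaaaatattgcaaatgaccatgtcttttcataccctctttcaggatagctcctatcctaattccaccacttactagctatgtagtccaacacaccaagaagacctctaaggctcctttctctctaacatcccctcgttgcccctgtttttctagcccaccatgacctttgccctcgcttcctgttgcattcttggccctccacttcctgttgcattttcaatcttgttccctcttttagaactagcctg
Ccl3: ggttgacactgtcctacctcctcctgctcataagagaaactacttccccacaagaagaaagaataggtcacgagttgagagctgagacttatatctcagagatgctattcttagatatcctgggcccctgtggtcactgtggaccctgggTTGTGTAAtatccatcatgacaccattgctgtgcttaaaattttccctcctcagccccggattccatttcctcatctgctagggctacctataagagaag
Ccl9: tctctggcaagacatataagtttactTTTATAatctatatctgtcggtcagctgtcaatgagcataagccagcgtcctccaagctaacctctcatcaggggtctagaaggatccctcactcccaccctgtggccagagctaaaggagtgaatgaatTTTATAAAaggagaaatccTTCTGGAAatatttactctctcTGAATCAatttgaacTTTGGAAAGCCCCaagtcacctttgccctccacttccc
Cxcl2: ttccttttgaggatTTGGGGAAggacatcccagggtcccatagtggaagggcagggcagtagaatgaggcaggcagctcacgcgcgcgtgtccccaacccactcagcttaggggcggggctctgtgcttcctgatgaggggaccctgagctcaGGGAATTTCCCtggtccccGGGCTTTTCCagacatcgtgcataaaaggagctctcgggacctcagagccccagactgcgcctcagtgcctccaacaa

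Ccl6 had no match to any of the 4 motifs, and Ccl3 had a single C/EBP match at -100 to -93 from the start. Ccl9 had C/EBP matches at -75 to -68 and at -38 to -31, an NF-kappaB match at -35 to -26 that shares bases with the second of these, an AP-1 match at -53 to -47 and 3 TATA matches, of which 2 overlap on opposite strands. Cxcl2 had a C/EBP match at -236 to -229 and 3 NF-kappaB matches, of which those at -97 to -88 and at -96 to -87 overlap on opposite strands. Ccl1, whose window is not printed, had 1 C/EBP and 2 NF-kappaB matches, all overlapping. Sequences of Ccl2, Ccl4 and Ccl7 were not analysed here. Of 32851 mouse promoter windows of the same length, 36.8% held the C/EBP letters, 45.8% the NF-kappaB letters, 6.75% the AP-1 letters and 12.4% the TATA letters, against 4, 3, 1 and 1 of the 5 chemokine windows. These matches describe letters only.

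Cebpa and marker genes were set beside the labels. Cebpa averaged 65.5 ± 6.60 in f/f basophils with 4-OHT and 983 ± 63.5 without it, 2778 ± 220.0 in +/+ basophils with 4-OHT and 2369 ± 203 without it, 2243 ± 144 in fresh basophils and 55.5 ± 9.13 in mast cells (normalized intensity, SD, n = 3 each). The f/f basophils held less Cebpa signal than the +/+ basophils also without 4-OHT. Of 10 measured basophil markers, 9 were above background in f/f basophils with 4-OHT, 8 in mast cells and 10 in the other 4 groups. Of 11 measured mast cell markers, 7 were above background in fresh basophils and 10 in each other group, with Tpsab1 at background in all 6 groups. Gata2 stands in both lists, and the count of mast cell markers does not tell mast cells from cultured basophils. Mitf, a mast cell regulator, averaged 1736 ± 101 in f/f basophils with 4-OHT and 402 ± 11.5 without it, 429 ± 26.8 in +/+ basophils with 4-OHT and 587 ± 15.7 without it, 152 ± 2.06 in fresh basophils and 4985 ± 445 in mast cells. As these are bulk samples, fewer cells of a type and less RNA per cell cannot be told apart. Before normalization the array medians lay between 24 and 42, and 47.6% to 55.2% of probes per array reached 30, the intensity taken here as the limit of background: a probe under 30 on all 3 arrays of a group is called at background there. The number of arrays limits the precision of every value.

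Values below are intensities on a linear scale, normalized so that all arrays share 1 distribution, and the levels of different genes are not set against each other, since each rests on its own probe. Ccl3, a ligand of Ccr1, was at 22171, 20161 and 23528 in f/f basophils with 4-OHT and at 30114, 26925 and 26207 without it. It was at 49573, 45456 and 56723 in +/+ basophils with 4-OHT and at 44127, 43008 and 40982 without it. Fresh basophils had 47688, 47688 and 44127, and mast cells 538, 459 and 610.2. Mast cells lay far below every basophil group, both f/f groups lay below the +/+ and fresh groups, and +/+ basophils with 4-OHT overlapped fresh basophils, which touched +/+ basophils without the drug. Some arrays share a value because this normalization gives probes of the same rank the same intensity.

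Ccl4, a macrophage inflammatory protein encoded next to Ccl3, was at 16201, 14553 and 13824 in f/f basophils with 4-OHT and at 11808, 12642 and 12729.6 without it. It was at 22667, 19002 and 18402 in +/+ basophils with 4-OHT and at 17455, 17700 and 17109 without it. Fresh basophils had 27391, 24583 and 24583, and mast cells 384, 397 and 342. No 2 neighbours in the order of the group levels overlapped: fresh basophils were highest, then both +/+ groups, then both f/f groups, then mast cells.

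Ccl6, a ligand of Ccr1 found in rodents, was at 12642, 11479.8 and 12789 in f/f basophils with 4-OHT and at 20392, 21350.3 and 19646 without it. It was at 44127, 44127 and 47688 in +/+ basophils with 4-OHT and at 39630.4, 40982 and 38700.4 without it. Fresh basophils had 26207, 22497 and 25342, and mast cells 725, 711 and 763. Here too no neighbouring groups overlapped, but fresh basophils stood between the +/+ and the f/f groups, and f/f basophils with 4-OHT were the lowest of the basophils.

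Ccl9, a second rodent ligand of Ccr1, was at 1855, 1806 and 2048 in f/f basophils with 4-OHT and at 3755, 3465 and 3462 without it. It was at 2916, 2958 and 3390.4 in +/+ basophils with 4-OHT and at 3349, 3686 and 3344 without it. Fresh basophils had 1240.4, 1401 and 1331, and mast cells, at background, 9.33, 10.9 and 13.6. The f/f basophils without 4-OHT and the +/+ basophils without it overlapped, as did both +/+ groups, while f/f basophils with the drug lay below all 3.

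Cxcl2, the neutrophil attractant, was at 945, 1046 and 881 in f/f basophils with 4-OHT and at 753, 931 and 876 without it. It was at 1124, 1113 and 1188 in +/+ basophils with 4-OHT and at 923, 904 and 977 without it. Fresh basophils had 2887, 2869 and 3016, and mast cells, at background, 9.33, 20 and 16.9. Fresh basophils lay above all cultured ones, and f/f basophils with 4-OHT overlapped both groups without the drug.

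Ccl2, a monocyte attractant, was at 2331, 1793 and 1898 in f/f basophils with 4-OHT and at 1394, 1820.1 and 1703 without it. It was at 5687, 5302 and 6023 in +/+ basophils with 4-OHT and at 6204, 5802 and 6674 without it. Fresh basophils had 225, 161 and 155, and mast cells 1591, 1918 and 1533. The +/+ groups overlapped at the top, f/f basophils with 4-OHT overlapped mast cells and mast cells overlapped f/f basophils without it, and fresh basophils were lowest.

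Ccl7, its neighbour on the chromosome and a further monocyte attractant, was at 717, 719.7 and 764 in f/f basophils with 4-OHT and at 732, 672 and 666 without it. It was at 2501, 2618 and 2868 in +/+ basophils with 4-OHT and at 3311, 3475 and 3427 without it. Fresh basophils had 13.1, 25.2 and 34.2, with 1 of 3 arrays above 30, and mast cells, at background, 14.6, 9.83 and 15.2. The f/f groups overlapped each other and lay below both +/+ groups, and fresh basophils overlapped mast cells.

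Ccl1, the Ccr8 ligand, was at 104, 103 and 93.3 in f/f basophils with 4-OHT and at 181, 190.2 and 166 without it. It was at 51.7, 54.2 and 49.7 in +/+ basophils with 4-OHT and at 176, 199 and 179 without it. Fresh basophils, at background, had 7.11, 11.9 and 5.94, and mast cells 64.2, 56.4 and 68.3. Both groups without 4-OHT overlapped at the top, and +/+ basophils with 4-OHT lay below mast cells and below f/f basophils with the drug.

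**Figure D1:**
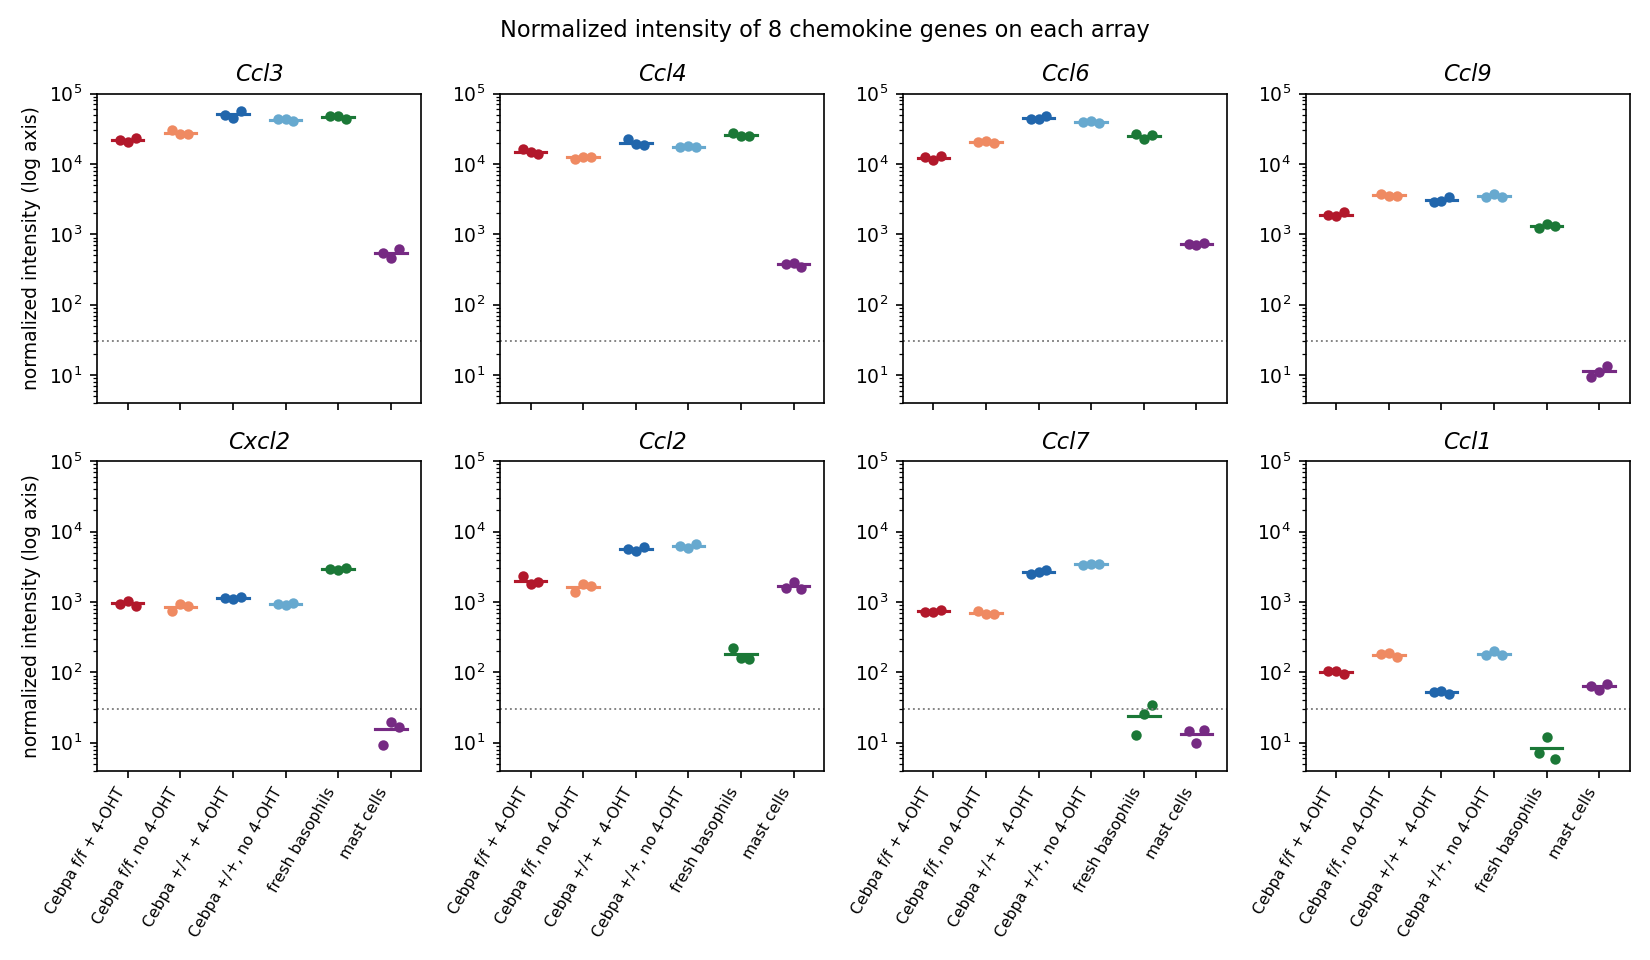
Normalized intensity (log axis) of the 8 chemokine genes on each of 18 arrays, 3 per group, with a bar at each group mean and a dotted line at the background limit of 30; 4-OHT is 4-hydroxytamoxifen. Mast cells lie at or below the limit for Ccl7, Ccl9 and Cxcl2, and fresh basophils do so for Ccl1.

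Basophils of every kind tested carried far more Ccl3, Ccl4, Ccl6, Ccl9 and Cxcl2 signal than mast cells. In fresh basophils against mast cells, 6 of the 8 genes were higher and 2 lower, with an adjusted p under 0.05 in a limma model over all probes, where 40.6% of all probes were past the test, 18.3% higher and 22.3% lower. The log2 difference (± standard error) was 6.41 ± 0.11 for Ccl3 (84.8-fold higher, adjusted p = 1.52e-17), 6.03 ± 0.095 for Ccl4 (65.4-fold higher) and 5.04 ± 0.081 for Ccl6 (32.9-fold higher). Against the limit of background in mast cells, Ccl9 was at least 44.1-fold and Cxcl2 at least 97.5-fold higher in fresh basophils. A bound of this kind sets the mean of the brighter group against the limit of 30 or the dim probe's own values, whichever is higher on each array. The 2 lower genes were Ccl2, 8.71-fold lower in fresh basophils (-3.12 ± 0.14 on the log2 scale), and Ccl1, at least 2.10-fold lower. The median log2 difference was 5.33 over the 8 genes and -0.044 over all probes.

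The call of Ccl7 as higher was lost under several settings. Its log2 difference between fresh basophils and mast cells was 0.43 ± 0.14 (adjusted p = 0.0239), with both group means under 30, so that no fold is given. The adjusted p was 0.161 without fresh basophil replicate 3, the array above 30, 0.0755 without fresh basophil replicate 2 and 0.104 without mast cell replicate 2. With all arrays kept, it was 0.0547 with median scaling and 0.123 when only these 2 groups were normalized and fitted.

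In cultured +/+ basophils without 4-OHT against the same mast cells, all 8 genes were higher, where 39.2% of all probes were past the test, 16.9% higher and 22.3% lower. Ccl6 had a log2 difference of 5.73 ± 0.081 (53.1-fold), Ccl3 of 6.28 ± 0.11 (77.9-fold) and Ccl4 of 5.48 ± 0.095 (44.7-fold). Ccl9 was at least 115-fold higher, Ccl7 at least 113-fold and Cxcl2 at least 31.2-fold. The smallest differences were those of Ccl2, 1.88 ± 0.14, and Ccl1, 1.35 ± 0.098, and the largest adjusted p among the 8 was 7.90e-09.

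In f/f basophils with 4-OHT against mast cells, 7 genes were higher and Ccl2 was not past the test, where 35.4% of all probes were past the test, 15.7% higher and 19.6% lower. Ccl3 had a log2 difference of 5.32 ± 0.11, Ccl4 of 5.25 ± 0.095 (38.1-fold) and Ccl6 of 4.04 ± 0.081 (16.4-fold). Ccl9 was at least 63.4-fold, Cxcl2 at least 31.9-fold and Ccl7 at least 24.5-fold higher, and Ccl1 had a log2 difference of 0.56 ± 0.098. Ccl2 differed by 0.25 ± 0.14 (95% interval -0.051 to 0.56, adjusted p = 0.199). The 3 comparisons share the mast cell arrays, and their values stand side by side without a test between them.

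**Figure D2:**
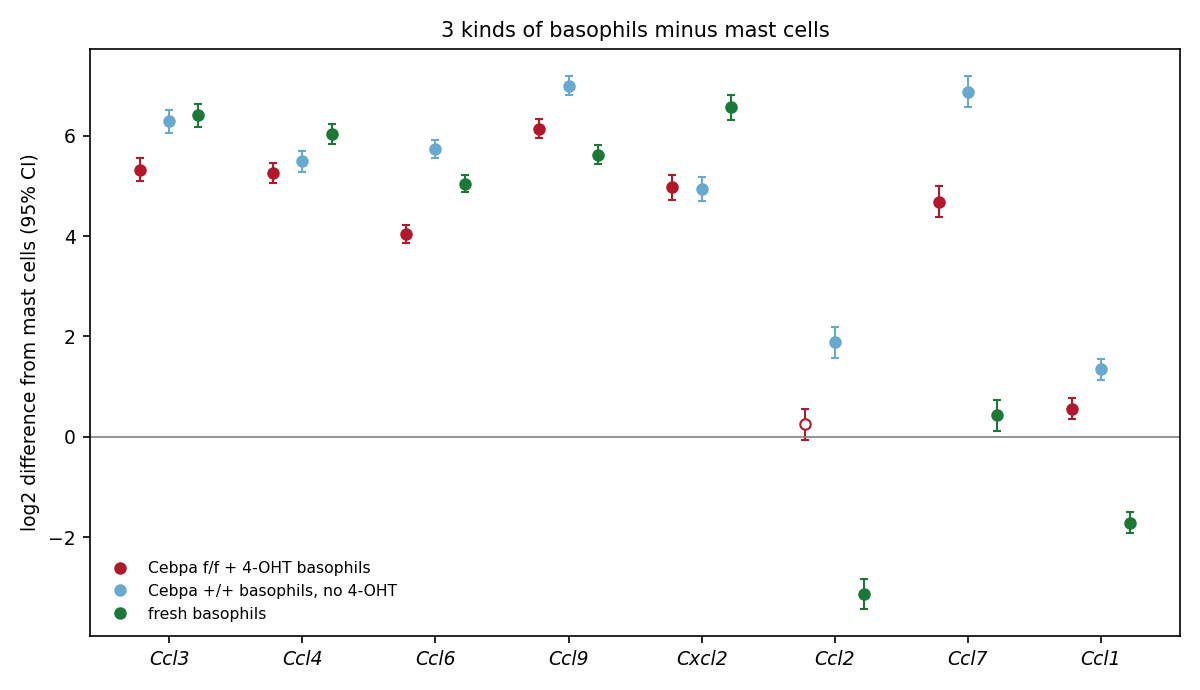
Log2 difference from mast cells of the 8 genes in f/f basophils with 4-OHT (4-hydroxytamoxifen), +/+ basophils without it and fresh basophils, with 95% confidence intervals; filled circles passed the test and open circles did not. Values of Ccl7, Ccl9 and Cxcl2, and of Ccl1 in fresh basophils, are fitted values against a group at background and not bounds. Ccl3, Ccl4, Ccl6, Ccl9 and Cxcl2 lie well above 0 in all 3 groups.

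Markers of other cells moved with these comparisons. The summed intensity of 13 monocyte and macrophage markers was 32562 to 33809 in fresh basophils and 13226 to 14993 in +/+ basophils without 4-OHT, against 716 to 721 in mast cells, where 8 of the 13, among them C1qa, Csf1r and Cd14, were at background. That of 15 neutrophil markers was 115539 to 121111 in fresh basophils, 37503 to 39376 in +/+ basophils without 4-OHT and 6409 to 7779.7 in mast cells, with S100a8 at background in all 6 groups. That of 7 eosinophil markers was 48916 to 50273, 4801 to 4967 and 632 to 727 in the same 3 groups. That of 12 T and NK cell markers was 4026 to 4469, 3787 to 4049 and 240.1 to 257, with 5, 5 and 2 of the 12 above background. Cd4, Cd5, Ncr1, Klrb1c and Prf1 were at background in all 6 groups. The summed intensity of 8 B cell markers was 1613 to 1778, 733 to 809.9 and 483 to 527, with 5, 5 and 4 of the 8 above background. Ms4a1 and Pax5 were at background in all 6 groups. The summed intensity of 4 red cell markers was 676 to 684, 66.7 to 103 and 88.7 to 102, with 4, 1 and 2 of the 4 above background. That of 6 megakaryocyte and platelet markers was 1821 to 2076, 10869 to 12553 and 3168 to 3383, with Itga2b at background in all 6 groups. Pf4, in this list, averaged 1459 ± 117, 10602 ± 947 and 169 ± 32.1 in the same 3 groups. The part of these cells in the chemokine differences was not tested.

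Culture went with higher Ccl2, Ccl7, Ccl1, Ccl9 and Ccl6 and lower Cxcl2 and Ccl4. In +/+ basophils without 4-OHT against fresh basophils, 5 genes were higher and 2 lower, where 34.9% of all probes were past the test, 17.3% higher and 17.6% lower. Ccl2 had a log2 difference of 5.01 ± 0.14 (32.1-fold), Ccl9 of 1.38 ± 0.091 (2.59-fold) and Ccl6 of 0.69 ± 0.081 (1.61-fold). Ccl1 was at least 6.15-fold higher in the cultured cells. Ccl7 passed the test as higher, but only 1 of 3 fresh arrays measured it above 30, so its fitted log2 difference of 6.45 ± 0.14 rests on the offset and no fold is given. Cxcl2 fell by 1.63 on the log2 scale (3.09-fold lower) and Ccl4 by 0.55 (1.46-fold lower), and the largest adjusted p of the 7 was 1.75e-04. Ccl3 differed by -0.12 ± 0.11 (adjusted p = 0.451), and by -0.26 with an adjusted p of 0.0375 where arrays were not normalized to each other. The monocyte, neutrophil and eosinophil marker sums given above were all lower in these cultured basophils, and their part was not tested.

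With 4-OHT, most of the 8 genes were lower in f/f than in +/+ basophils. In f/f against +/+ basophils, both with 4-OHT, 6 genes were lower, Ccl1 was higher and Cxcl2 was not past the test, where 30.7% of all probes were past the test, 14.9% lower and 15.9% higher. Ccl6 had a log2 difference of -1.88 ± 0.081 (3.68-fold lower, adjusted p = 2.24e-11), Ccl7 of -1.84 ± 0.14 (3.57-fold lower) and Ccl2 of -1.50 ± 0.14 (2.82-fold lower). Ccl3 was 2.30-fold lower (-1.20 ± 0.11), Ccl9 1.62-fold lower (-0.69 ± 0.091) and Ccl4 1.34-fold lower (-0.43 ± 0.095, adjusted p = 0.00219). Ccl1 was 1.71-fold higher (0.77 ± 0.098). Cxcl2 differed by -0.25 ± 0.12 (95% interval -0.50 to -0.0074, adjusted p = 0.118), although the 3 f/f arrays all lay below the 3 +/+ arrays, and its adjusted p was 0.0216 with an offset of 50 before the log. The median log2 difference over the 8 genes was -0.95 with the drug and -0.56 without it.

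The genotypes already differed without the drug, in the groups where Cebpa itself was lower in f/f basophils. There 5 genes were lower in f/f than in +/+ basophils and none higher, where 15.8% of all probes were past the test, 7.27% lower and 8.54% higher. Ccl7 had a log2 difference of -2.28 ± 0.14 (4.85-fold lower), Ccl2 of -1.92 ± 0.14 (3.79-fold lower) and Ccl6 of -0.96 ± 0.081 (1.94-fold lower). Ccl3 differed by -0.62 ± 0.11 (adjusted p = 6.09e-04) and Ccl4 by -0.49 ± 0.095 (adjusted p = 0.00152), calls that ended when the arrays were scaled to their medians (adjusted p = 0.233 and 0.353). Ccl1 differed by -0.041 ± 0.098 (95% interval -0.25 to 0.17), Ccl9 by 0.042 ± 0.091 (-0.15 to 0.24) and Cxcl2 by -0.13 ± 0.12 (-0.38 to 0.11), none past the test.

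In f/f basophils 4 of the 8 genes were lower with 4-OHT than without it, where 19.6% of all probes were past the test, 9.67% lower and 9.92% higher. Ccl9 had a log2 difference with against without the drug of -0.90 ± 0.091 (1.87-fold lower, adjusted p = 1.64e-06), Ccl1 of -0.75 ± 0.098 (1.68-fold lower) and Ccl6 of -0.73 ± 0.081 (1.66-fold lower). Ccl3 differed by -0.34 ± 0.11 (adjusted p = 0.0376), a call lost without f/f 4-OHT replicate 1 (0.0805) or 2 (0.156) and without f/f no-drug replicate 1 (0.128) or 2 (0.0618). That call was also lost with an offset of 1 (0.0572) and when only these 2 groups were normalized and fitted (0.0906). Ccl2 differed by 0.29 ± 0.14, Ccl4 by 0.26 ± 0.095, Cxcl2 by 0.16 ± 0.12 and Ccl7 by 0.088 ± 0.14, none past the test.

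In +/+ basophils, Ccl1 alone of the 8 was past the test, with a log2 difference with against without the drug of -1.56 ± 0.098 (2.95-fold lower, adjusted p = 2.89e-08), where 21.3% of all probes were past the test, 10.1% lower and 11.2% higher. The other 7 were not past the test in this fit: Ccl3 differed by 0.24 ± 0.11, Ccl4 by 0.19 ± 0.095, Ccl6 by 0.19 ± 0.081, Ccl7 by -0.35 ± 0.14, Ccl9 by -0.16 ± 0.091, Cxcl2 by 0.28 ± 0.12 and Ccl2 by -0.13 ± 0.14. Ccl7 was called lower without normalization (adjusted p = 0.00169), with an offset of 50 (0.00379) and with the 12 cultured arrays alone (0.00932). That call was also made with median scaling on bright probes (0.0196) and when only these 2 groups were normalized and fitted (0.0284). Ccl9 was called lower without normalization (0.00112) and with scaling on bright probes (0.0341). Ccl3 was called higher with median scaling (0.0435) and with scaling on bright probes (0.0273). Ccl6 was called higher with an offset of 50 (0.0425) and with scaling on bright probes (0.0197). Cxcl2 was called higher with an offset of 50 (0.0145) and with only these 2 groups (0.0465). The genotype and drug comparisons share arrays among themselves.

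The interaction term, the drug difference in f/f basophils minus that in +/+ basophils, was past the test for 4 genes, where 12.6% of all probes were, 6.17% positive and 6.46% negative. It was -0.92 ± 0.11 for Ccl6 (adjusted p = 3.73e-05), -0.73 ± 0.13 for Ccl9 (adjusted p = 9.99e-04) and -0.58 ± 0.15 for Ccl3 (adjusted p = 0.0201), and positive, 0.82 ± 0.14, for Ccl1 (adjusted p = 7.55e-04). The Ccl3 call was lost without +/+ 4-OHT replicate 3 (0.0572) or f/f 4-OHT replicate 2 (0.0557), and the Ccl1 call with arrays scaled to their medians (0.148). For Ccl2 the term was 0.42 ± 0.20, for Ccl4 0.064 ± 0.13, for Ccl7 0.44 ± 0.20 and for Cxcl2 -0.12 ± 0.16, none past the test. For Ccl7 the adjusted p was 0.191, but 0.0152 where arrays were not normalized to each other, 0.0151 with an offset of 50 and 0.0302 with the 12 cultured arrays alone. A negative term means a more negative drug difference in f/f than in +/+ basophils, and the positive term of Ccl1 means a less negative one.

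**Figure D3:**
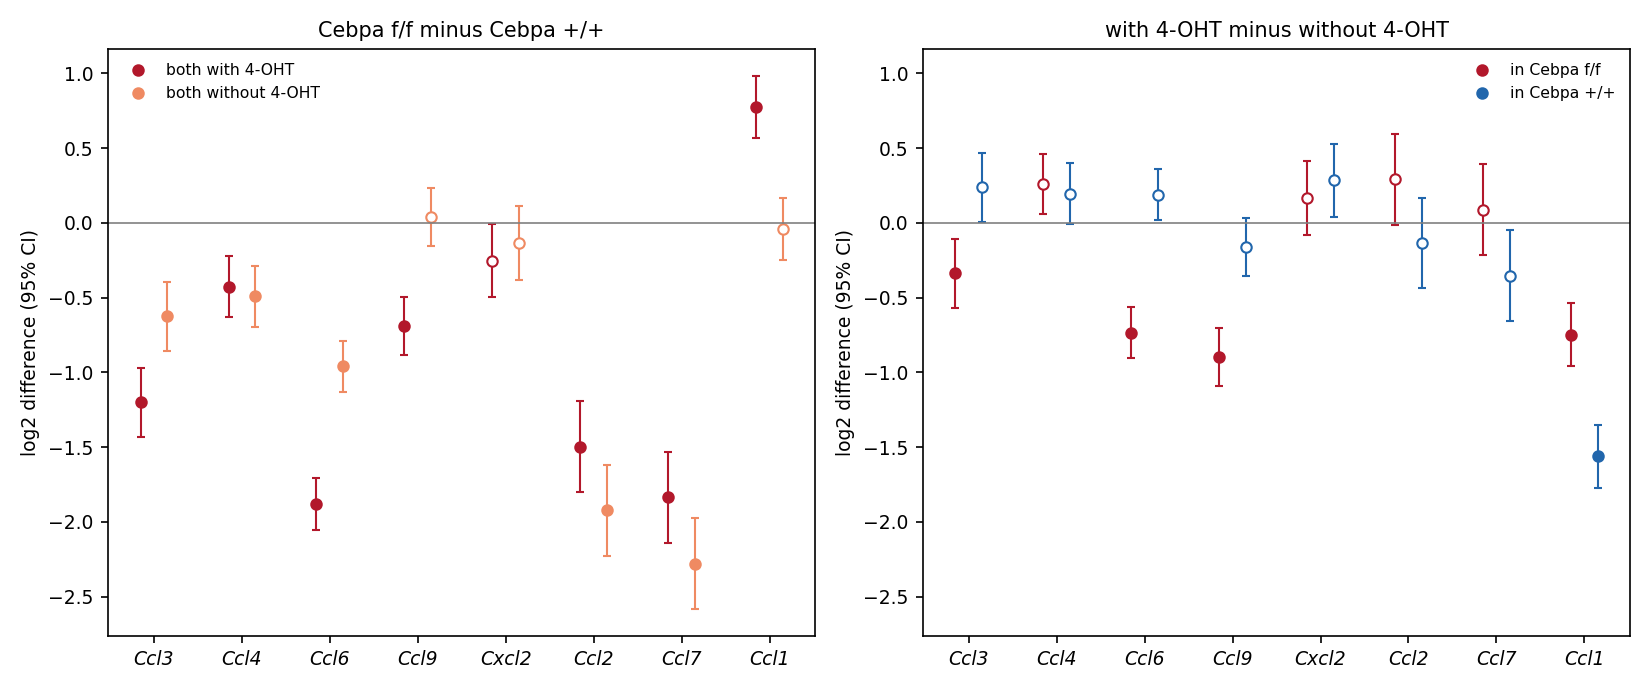
Log2 differences of the 8 genes with 95% confidence intervals, for f/f minus +/+ basophils (left, both with or both without 4-OHT, 4-hydroxytamoxifen) and for 4-OHT minus no drug (right, in f/f or in +/+ basophils). Filled circles passed the test and open circles did not. Ccl2, Ccl3, Ccl4, Ccl6 and Ccl7 passed the test below 0 in both genotype comparisons, and Ccl9 only in the one with the drug.

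Markers moved with genotype and drug as well. The 13 monocyte and macrophage markers summed to 7356 to 7566 in f/f basophils with 4-OHT and 9497 to 10904 without it, against 15963 to 16593 in +/+ basophils with 4-OHT and 13226 to 14993 without it. Timd4 and Fcgr1 were at background in all 4 of these groups, and Cd163 in both f/f groups. The 10 basophil markers summed to 146862 to 152432 in f/f basophils with 4-OHT and 168343 to 172458 without it. In +/+ basophils they summed to 165730 to 172204 with 4-OHT and 170226 to 179596 without it. The 11 mast cell markers summed to 141278 to 148765 and 86185 to 86317 in f/f basophils with and without the drug, against 99144 to 99837 and 91199 to 93516 in +/+ basophils with and without it, and the 7 eosinophil markers to 10894 to 11207 and 7554 to 8578 against 3859 to 4110.1 and 4801 to 4967. The 15 neutrophil markers summed to 18168 to 20914 and 19226 to 21116 in the f/f groups, against 25913 to 27298 and 37503 to 39376 in the +/+ groups. The 12 T and NK cell markers summed to 1767 to 1879.9 and 744 to 806 in the f/f groups, against 1696 to 1805 and 3787 to 4049 in the +/+ groups. Above background were 5, 5, 6 and 5 of these 12, in the same order. The 6 megakaryocyte and platelet markers summed to 9040.5 to 11508 and 4484 to 5707 against 13664 to 14979.8 and 10869 to 12553. Pf4 alone averaged 9021 ± 1218 and 4504 ± 584 against 12341 ± 565 and 10602 ± 947. The 8 B cell markers summed to 576 to 962 and 515 to 556 against 1104 to 1163 and 733 to 809.9, and 3 of 4 red cell markers were at background in all 4 groups. Their part in the chemokine differences was not tested.

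The gene lists below are described by counts past the test and by medians, to be read beside the shares of all probes given above; the all-probe median lay between -0.048 and 0.012 in the 9 comparisons. Of 30 other chemokine ligands, 26 were measured. In f/f against +/+ basophils with 4-OHT 1 of 26 were higher and 11 lower, with a median log2 difference of -0.26. Ccl12, a Ccr2 ligand of the mouse beside Ccl2 and Ccl7, averaged 2184 ± 96.7 in f/f basophils with 4-OHT and 7240.2 ± 120.2 in +/+ basophils with it (log2 difference -1.72 ± 0.20). Cxcl5 differed by -1.11 ± 0.18, Cxcl10, an interferon-induced chemokine, by -0.96 ± 0.18, and Ppbp, a platelet chemokine, by -0.85 ± 0.10. In f/f against +/+ basophils without the drug 3 of 26 were higher and 7 lower, with a median log2 difference of -0.049, led by Cxcl10 (-2.22 ± 0.18) and Ccl12 (-1.83 ± 0.20). With against without 4-OHT, in f/f basophils 4 of 26 were higher and 2 lower, with a median log2 difference of 0.11, and in +/+ basophils 9 of 26 were higher and 2 lower, with a median log2 difference of 0.24. Ppbp rose with 4-OHT by 1.65 ± 0.10 in f/f and by 1.83 ± 0.10 in +/+ basophils. Ppbp and Pf4 stand in the platelet marker list as well.

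Against mast cells, 12 of 26 were higher and 4 lower, with a median log2 difference of 0.17 in fresh basophils, 15 of 26 were higher and 2 lower, with a median log2 difference of 0.62 in +/+ basophils without 4-OHT, and 15 of 26 were higher and 2 lower, with a median log2 difference of 0.61 in f/f basophils with it. Cxcl9 led in fresh basophils (at least 18.1-fold higher), and Ccl12 in both cultured groups (log2 difference 6.25 ± 0.20 in f/f with 4-OHT and 7.97 ± 0.20 in +/+ without it, both fitted against a mast cell mean of 14.9, under the limit). In +/+ basophils without 4-OHT against fresh basophils 12 of 26 were higher and 5 lower, with a median log2 difference of 0.29, with Ccl12 at 5.09 ± 0.20 and Ccl22, a ligand of Ccr4, at 4.87 ± 0.16, fitted against a fresh basophil mean of 29.0.

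Among 8 measured receptors for these chemokines, 1 of 8 were higher and 4 lower, with a median log2 difference of -0.65 in f/f against +/+ basophils with 4-OHT. Cxcr2, the Cxcl2 receptor, averaged 232 ± 7.42 in f/f basophils and 4185 ± 70.8 in +/+ basophils (-4.08 ± 0.079). Ccr1, receptor of Ccl3, Ccl6 and Ccl9, differed by -1.94 ± 0.12 and Cxcr1 by -2.38 ± 0.099, while Ccr2, receptor of Ccl2 and Ccl7, was higher by 2.43 ± 0.10. Without the drug 1 of 8 were higher and 3 lower, with a median log2 difference of -0.053 in f/f against +/+ basophils, with Ccr3, the eotaxin receptor, at -1.20 ± 0.12. Cxcr2 stands in the neutrophil marker list as well, and Ccr3 in the eosinophil marker list. With against without 4-OHT, 1 of 8 were higher and 3 lower, with a median log2 difference of -0.02 in f/f basophils, with Cxcr2 at -3.52 ± 0.079, and 0 of 8 were higher and 2 lower, with a median log2 difference of -0.044 in +/+ basophils, with Ccr2 at -1.34 ± 0.10 and Cxcr2 at -0.25 ± 0.079. Against mast cells, 5 of 8 were higher and 1 lower, with a median log2 difference of 0.41 in fresh basophils, 4 of 8 were higher and 1 lower, with a median log2 difference of 0.84 in +/+ basophils without 4-OHT and 2 of 8 were higher and 1 lower, with a median log2 difference of 0.14 in f/f basophils with it, and in cultured +/+ against fresh basophils 2 of 8 were higher and 1 lower, with a median log2 difference of 0.12.

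NF-kappaB family and target genes, which drive and answer inflammatory signals, showed no single direction between genotypes. In f/f against +/+ basophils with 4-OHT 5 of 15 were higher and 3 lower, with a median log2 difference of -0.038, with Cd83 at -1.25 ± 0.15 and Bcl3 at 1.24 ± 0.085, and without it 3 of 15 were higher and 3 lower, with a median log2 difference of -0.0072. Against mast cells 7 of 15 were higher and 7 lower, with a median log2 difference of 0.15 in fresh basophils, 7 of 15 were higher and 1 lower, with a median log2 difference of 0.34 in +/+ basophils without 4-OHT and 10 of 15 were higher and 0 lower, with a median log2 difference of 0.54 in f/f basophils with it. In cultured +/+ against fresh basophils 8 of 15 were higher and 3 lower, with a median log2 difference of 0.73, and Traf1 was at 2.59 ± 0.10. With against without 4-OHT 3 of 15 were higher and 4 lower, with a median log2 difference of 0.032 in f/f basophils, and 3 of 15 were higher and 4 lower, with a median log2 difference of -0.054 in +/+ basophils.

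Immediate early genes, which respond quickly to stimulation and to cell handling, were high in fresh basophils. In fresh basophils against mast cells, 14 of 18 were higher and 0 lower, with a median log2 difference of 3.50. Fos was at least 598-fold and Dusp1 at least 257-fold higher there. Cultured basophils were above mast cells too. In +/+ basophils without 4-OHT 13 of 18 were higher and 0 lower, with a median log2 difference of 1.72. In f/f basophils with 4-OHT 14 of 18 were higher and 2 lower, with a median log2 difference of 1.39. In +/+ basophils without 4-OHT against fresh basophils 0 of 18 were higher and 13 lower, with a median log2 difference of -1.40, with Fosb at -5.58 ± 0.082 and Fos at -4.14 ± 0.11. In f/f against +/+ basophils with 4-OHT 4 of 18 were higher and 6 lower, with a median log2 difference of -0.24, with Btg2 at -1.92 ± 0.099 and Zfp36, which speeds decay of chemokine messages, at -1.87 ± 0.15, and without it 2 of 18 were higher and 6 lower, with a median log2 difference of -0.21. With against without 4-OHT 4 of 18 were higher and 2 lower, with a median log2 difference of 0.04 in f/f basophils, and 5 of 18 were higher and 2 lower, with a median log2 difference of 0.19 in +/+ basophils. Cxcl2 and Ccl4 were, like 13 of these genes, lower in cultured +/+ than in fresh basophils. Ccl2, Ccl7, Ccl1, Ccl9 and Ccl6 were higher in the cultured cells, and Ccl3 was not past the test. The part of the immediate early genes in the chemokine differences was not tested.

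Over the 18 arrays, the genes whose log2 values ran most like each chemokine were ranked by Pearson's r among 13486 probes, a description in which all points share the same arrays and the large gap between mast cells and basophils. Ccl3 was closest to Ttc39c (r = 0.998), Marcks (r = 0.992) and Slain1 (r = 0.991), and Ccl4 to Egr1 (r = 0.992), Marcks (r = 0.990) and Sort1 (r = 0.989). Ccl6 was closest to Fndc3b (r = 0.993), Satb1 (r = 0.993) and App (r = 0.991), Ccl9 to Kdm2a (r = 0.992), Pla2g6 (r = 0.991) and Ets1 (r = 0.990) and Cxcl2 to Frat2 (r = 0.992), Rcsd1 (r = 0.989) and Iffo1 (r = 0.988). Ccl2 was closest to Pfdn5 (r = 0.976), Anxa4 (r = 0.970) and Rn7sk (r = 0.965), Ccl7 to Ch25h (r = 0.995), Fam20c (r = 0.994) and Gpnmb (r = 0.994) and Ccl1 to Cacnb2 (r = 0.974), Vegfa (r = 0.960) and Fkbpl (r = 0.959). Among the 8 themselves, Ccl3 and Ccl4 had the highest correlation (r = 0.991) and Ccl2 and Cxcl2 the lowest (r = -0.20), and that of Ccl2 and Ccl7 was 0.78.

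By the RefSeq order of genes, 7 of the 8 lie on chromosome 11 in 2 runs. The first holds Ccl2, Ccl7, Ccl11, Ccl12, Ccl8 and Ccl1, and the second, after 25 coding genes, Ccl5, Ccl9, Ccl6, Ccl3 and Ccl4. Cxcl2 lies on chromosome 5. In the first run Ccl2, Ccl7 and Ccl12 were lower in f/f than in +/+ basophils with and without 4-OHT, while Ccl1 was not. In the second run Ccl9, Ccl6, Ccl3 and Ccl4 were lower in f/f basophils with 4-OHT. Ccl6, Ccl3 and Ccl4 were lower in f/f basophils without it too, the calls of Ccl3 and Ccl4 ending with median scaling, while Ccl9 was not past the test. Ccl5, a T cell and monocyte attractant named for its place in the run, averaged 745 ± 22.2 in f/f and 823 ± 49.3 in +/+ basophils with the drug. Ccl9, Ccl6, Ccl3 and Ccl4 were all higher in the 3 basophil groups set against mast cells. In Ccl6 and Ccl9 the order of cultured +/+ and fresh basophils was the reverse of that in Ccl4.

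**Figure D4:**
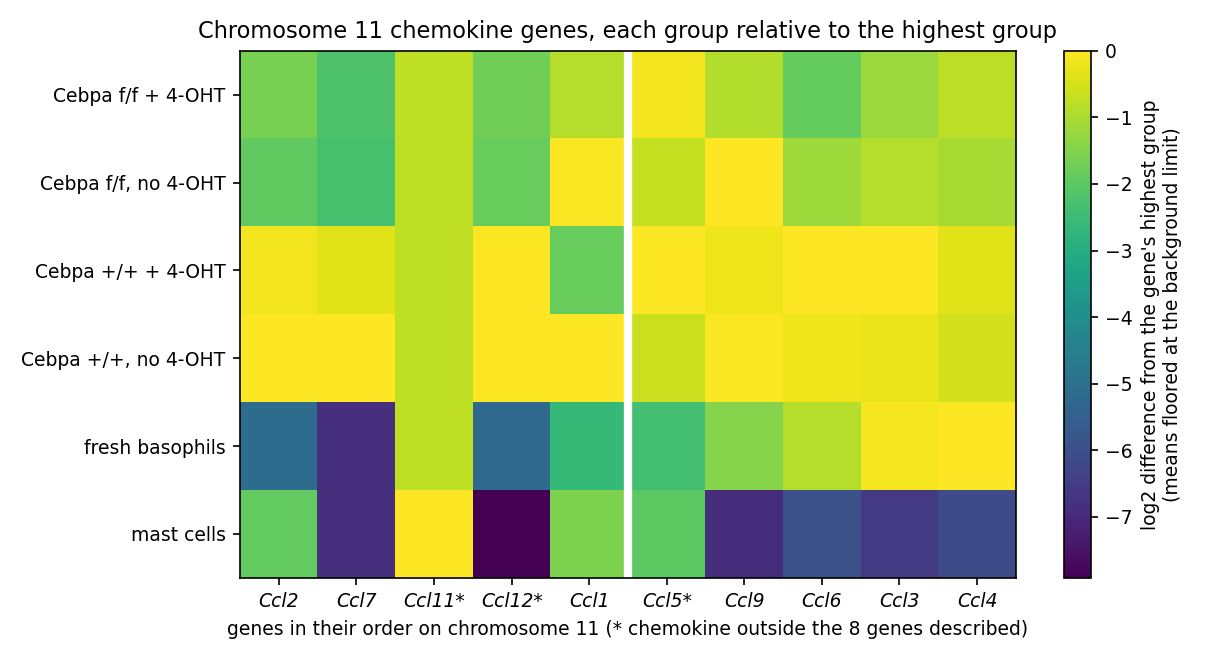
Group means of the chemokine genes of chromosome 11 in their order on the chromosome, as the log2 difference from the highest group of the same gene, with means under 30 set to 30; the white line parts the 2 runs, asterisks mark chemokines outside the 8, and 4-OHT is 4-hydroxytamoxifen. Ccl9, Ccl6, Ccl3, Ccl4 and Ccl12 share their lowest group, mast cells, while Ccl7 is set to 30 in both mast cells and fresh basophils. Ccl5 is lowest in fresh basophils. Ccl2, Ccl7, Ccl12, Ccl3 and Ccl6 are highest in +/+ basophils.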

How the data were processed

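Linear probe intensity values of 18 single-dye arrays were used as the authors deposited them, background-subtracted, as values down to -9 show; the sources used here name neither scanner software nor earlier normalization. Probes were named from the platform annotation (21876 with 1 symbol, 0 with several, 4547 with none), and cross-hybridization was not tested, since probe sequences were not used. Values were quantile normalized over 18 arrays, 16 was added, and log2 values were fitted in limma 3.58.1 (R 4.3.3) with a mean per group; p-values of 9 comparisons were two-sided and Benjamini-Hochberg adjusted over 26423 probes, with a threshold of 0.05. Fold changes are on the log2(intensity + 16) scale, which understates dim genes. The code was tested on simulated data.

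The 8 genes, 4 lists (other chemokine ligands, receptors, NF-kappaB genes, immediate early genes) and marker lists were chosen with earlier results of these data known. Named besides the 8 were up to 4 list genes per comparison by size of change among those past the test, and per chemokine the 3 genes with the highest r. Alternatives were median scaling (also on bright probes only), no normalization, offsets of 50 and 1, a filter on dim probes, an intensity trend, smaller sets of arrays, array weights, the replicate block and single arrays left out.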

Additional observations from a re-analysis of the deposited data

Results flagged for a closer look

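The difference made by 4-OHT was not the same in f/f and +/+ basophils for 4 of the 8 genes, by the interaction term of limma given above. The drug difference in f/f minus that in +/+ basophils was -0.92 ± 0.11 for Ccl6, -0.73 ± 0.13 for Ccl9, -0.58 ± 0.15 for Ccl3 and 0.82 ± 0.14 for Ccl1 on the log2 scale. For Ccl6, Ccl9 and Ccl3 the signal was lower with the drug in f/f basophils, and the drug difference was not past the test in +/+ basophils. For Ccl1 the signal was lower with the drug in both, by 0.75 in f/f and by 1.56 in +/+ basophils. Both Ccl3 calls, in f/f basophils and in the interaction, and the Ccl1 interaction call were lost under settings given above. In +/+ basophils Ccl3, Ccl6 and Ccl9 were called under some other settings, also given above.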

How the results depend on the processing

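Of 752 member differences recomputed under other settings, 713 kept their direction and side of the threshold, 7 lost the call, 21 gained one and 11 changed sign; of 480 with 1 array left out, 469 kept both, 9 lost the call and 2 changed sign. Each sign change was of a difference not past the test in either fit. With median scaling, f/f minus +/+ without drug was 0.15 for Ccl1 and 0.090 for Cxcl2, 4-OHT in f/f -0.070 for Ccl4 and -0.046 for Ccl7, and the interaction -0.25 for Ccl4. Without normalization, f/f minus +/+ without drug was -0.042 for Ccl9, 4-OHT in +/+ -0.13 for Ccl4, and the interaction 0.10 for Cxcl2. With scaling on bright probes, cultured minus fresh was 0.043 for Ccl3, f/f minus +/+ without drug -4.7e-04 for Ccl9, and the interaction -0.030 for Ccl4. With 1 array left out, f/f minus +/+ without drug lay between -0.082 and 0.0089 for Ccl1. For f/f against +/+ without 4-OHT, 3 genes were lower with median scaling, against 5. For 4-OHT in +/+ basophils, with 0 higher and 1 lower as reported, 1 was higher with median scaling, 2 with an offset of 50, 1 with only the groups compared and 2 with scaling on bright probes, the last chosen after seeing the data; 3 were lower without normalization, 2 with an offset of 50, 2 with only the groups compared, 2 with the 12 cultured arrays and 3 with scaling on bright probes. Probes called there numbered 3556 with median scaling, against 5624. For 4-OHT in f/f basophils 1 gene (Ccl4) was higher with an offset of 50, the dim filter or the trend, against 0. For the interaction 0 were positive with median scaling and 2 without normalization, with an offset of 50 or with the 12 cultured arrays, against 1, and 1893 probes were called with median scaling, against 3338. With 1 array left out, 5 to 6 genes were higher in fresh basophils than in mast cells, 3 to 4 lower with 4-OHT in f/f and 2 to 3 negative in the interaction. The cause of these changes was not tested.

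Scaling moved the split of probes higher and lower: fresh against mast 4832 and 5887, without normalization 8806 and 2508 (all-probe median 0.16, against -0.044); +/+ without drug against mast 4465 and 5904, then 6713 and 3342; f/f with 4-OHT against mast 4158 and 5185, then 5436 and 2873; cultured against fresh 4574 and 4641, then 3369 and 6094, with median scaling 2876 and 4841; f/f against +/+ with 4-OHT 4190 and 3926, then 4777 and 2916; without drug 2256 and 1921, then 1418 and 2807, with median scaling 2487 and 866, on bright probes 1798 and 2535; 4-OHT in f/f 2620 and 2555, with median scaling 1276 and 2343; in +/+ 2947 and 2677, then 1387 and 4720, with median scaling 2441 and 1115; interaction 1630 and 1708, then 2678 and 738, with median scaling 466 and 1427 (all-probe median -0.13). Samples share only a replicate number: deviations of 45 same-number pairs correlated at -0.385 to 0.160. Those of 90 different-number pairs correlated at -0.302 to 0.353. Blocking on the replicate number changed no member call and gave 10635 probes for fresh against mast cells (10719 without the block) and 3068 for the interaction (3338). Signal limits Ccl7, Ccl9 and Cxcl2 in mast cells and Ccl1 in fresh basophils to bounds. Averaging probes per gene leaves the values of the 8 genes as they are, each with 1 probe, and was not run for other genes.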
